A study of Homo sapiens with 6 samples.

Results

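OG is 1 of 3 edited populations of MDA-MB-468 that carry the label GPR52 KO, and its transcriptome was set against that of the other edited populations, 11 and 12. The comparison covers the 10191 of 31122 genes in the count table whose mean over OG, 11 and 12 was 10 or more CPM (counts scaled to library size, with TMM factors between libraries). MDA-MB-468 is an established human breast cancer cell line of the basal-like type, which lacks hormone receptors and HER2 amplification and carries amplified EGFR. The 3 edited populations were made with CRISPR-Cas9 and 1 guide RNA, sgRNA1, against GPR52, and the series description says that insertions or deletions were seen by Sanger sequencing. The other 3 libraries, W1, W2 and W3, are unedited parental (WT) cells grown in wells of the same plate. The labels give neither the meaning of the titles 11, 12 and OG nor whether each population is a clone or a pool, and they give no passage number. OG was sequenced once, so its differences are described without a test.

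Populations raised from an edited culture can descend from few cells and can then inherit differences that those cells already had. In an aneuploid line such as this, cells can differ in their number of copies of chromosome segments, in silenced or active promoters, and in adhesion or growth state. GPR52 itself is an orphan receptor coupled to cAMP whose gene lies inside an intron of RABGAP1L. Comparing populations that share the guide and the label shows how far they depart from each other, and the parental wells show on which side the departure lies.

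The 6 libraries held 25637794 to 31692454 counts, so 1 count was worth 0.0323 to 0.0398 CPM, and the compared genes held 97.6 to 97.9% of the counts of each library. Epithelial genes of the line (EPCAM, KRT8, KRT18, KRT19, CDH1 and EGFR) summed to 10382 to 10560 CPM in the parental wells, 8829 and 9575 in 11 and 12, and 13376 in OG. Most of the higher sum in OG was EGFR, at 8299 CPM against 4518 and 4906 in 11 and 12. KRT8 and KRT18 were also above both 11 and 12 in OG, EPCAM and KRT19 were below both, and CDH1 lay between them. SMAD4 and RB1, deleted in this line, stayed at or below 1.71 CPM in every library. Of 7 measured fibroblast markers, whose sum was 9.11 to 11.4 CPM in the parental wells, 24.4 to 26.4 in 11 and 12 and 32 in OG, COL1A1 was at 23.1 and 25.4 CPM in 11 and 12 and 27.6 in OG, and the defining LUM, COL1A2 and THY1 had no count in OG. FAP, of the same list, was at 2.47 to 3.05 CPM in the parental wells, 0.784 and 0.739 in 11 and 12, and 3.96 in OG. The 8 leukocyte markers summed to 37.5 to 48.1 CPM in the parental wells, 7.88 to 8.31 in 11 and 12 and 15.5 in OG. Of these, CSF1R was at 3.84 and 4.23 in 11 and 12 and 12.9 in OG. CD14 went the other way, at 28.1, 27.1 and 37 CPM in the parental wells, 3.99 and 3.87 in 11 and 12, and 2.43 in OG. PTPRC had no count in OG. The 5 measured endothelial markers summed to 3.91 to 4.3, 3.8 to 4.26 and 8.17 CPM, with KDR at 2.65 and 2.32 in 11 and 12 and 6.53 in OG. The sums of all 3 marker lists were thus higher in OG than in 11 and 12, and their part in the results was not tested. In bulk RNA, a change in the share of cells and a change in RNA per cell cannot be told apart.

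GPR52 RNA, which names the edit, was at a similar level in the 3 edited populations. It had 9, 1 and 0 counts in W1, W2 and W3, and 645, 694 and 724 in 11, 12 and OG, or 24.1, 24.4 and 25.8 CPM. OG therefore lay 0.09 log2 units above the mean of 11 and 12, and all 3 libraries labelled KO held far more of this RNA than the parental wells. A count of RNA does not show whether the coding sequence was disrupted, so the label could not be checked from these files. RABGAP1L, the host gene, was at 42.9, 43.2 and 40 CPM in the parental wells, 29.2 and 27.1 in 11 and 12, and 26 in OG, with all edited populations below the parental wells. OG was 0.11 log2 units below the mean of 11 and 12 here, but 0.12 above it on the authors' FPKM, so no direction between the edited populations holds for this gene.

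Across all compared genes OG stood farther from 11 and 12 than these did from each other. The median absolute log2 difference was 0.12 between 11 and 12 and 0.18 between OG and their mean (0.20 to 11 and 0.18 to 12 singly), against a median range of 0.11 over the 3 parental wells. OG and 11 were at least 2-fold apart for 195 genes (1.91%), and OG and 12 for 158 (1.55%). By contrast 11 and 12 were that far apart for 33 genes (0.324%), and the parental pairs for 13 (W1 and W2, 0.128%), 12 (W1 and W3, 0.118%) and 7 (W2 and W3, 0.0687%). Each edited population was at least 2-fold from each parental well for 646 to 717 genes, so OG was about as far from the parental wells as 11 and 12 were.

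A gene was called apart when OG differed at least 2-fold from the mean log2 CPM of 11 and 12 and lay past the nearer of them by more than the difference between 11 and 12 and by more than the parental range. By this rule 100 genes (0.981%) were higher in OG and 31 (0.304%) were lower. Of 146 genes at least 2-fold from the mean of 11 and 12, 15 were not called because the gap was within that spread. OLFML3 was the largest of them, at 24.3 and 85.6 CPM in 11 and 12 and 280 in OG. Against 11 alone, leaving out 12, 134 genes were higher and 60 lower, and against 12 alone 118 and 38, partly because the rule then has no 11 to 12 difference to exceed. The smallest called difference was that of PXN, at 85.1 and 84.5 CPM in 11 and 12 and 170 in OG, and PDGFB, at 19, 16.4 and 35.3 CPM, was just under the 2-fold limit. LNP1 at a mean of 10 CPM was just inside the expression limit and PARP16 at 9.99 just outside. The limit is on a mean that includes OG, so a rise can bring a gene in: 27 of the 100 higher genes had a mean below 10 CPM in 11 and 12, and 12 of the 31 lower genes were below 10 CPM in OG.

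**Figure D1:**
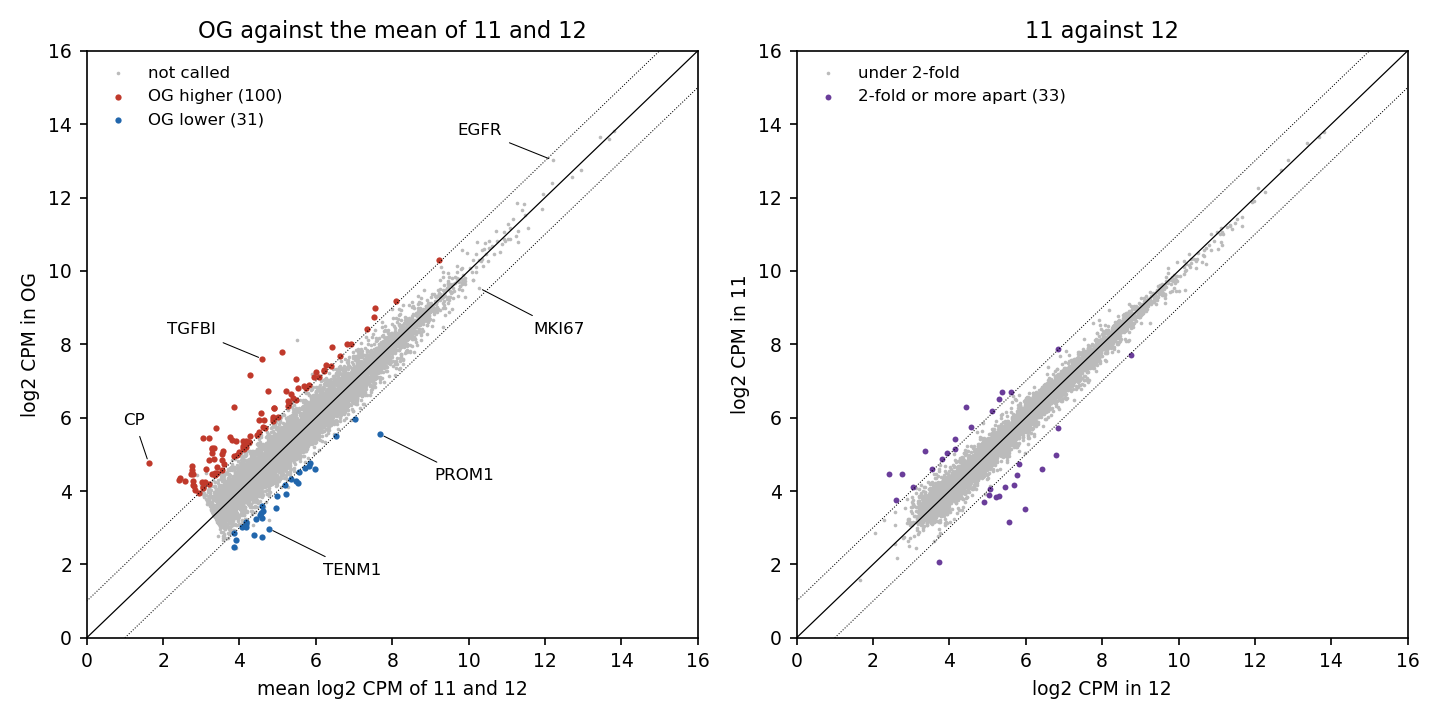
Each point is 1 of 10191 genes in log2 CPM, on the left for OG (vertical) against the mean of 11 and 12 (horizontal), and on the right for 11 against 12. The solid line marks equality and the dotted lines 2-fold, and 100 called genes lie above and 31 below on the left while 33 genes on the right are 2-fold or more apart.

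The largest rises in OG included genes of secreted and matrix proteins and of the cornified layer of epithelia. For CP, TGFBI, ALPP, FLG, OLFM4, GPNMB, TNC, TCHHL1, PDE4B and SLCO2A1 OG also exceeded every parental well. CP encodes ceruloplasmin, the copper-carrying ferroxidase. It was at 14.5, 12.6 and 12.5 CPM in W1, W2 and W3, at 2.91 and 3.1 in 11 and 12, and at 27.2 in OG, 8.88-fold above the mean of 11 and 12. The groups did not overlap, and the parental level lay between. TGFBI, a secreted matrix protein induced by TGF-beta, was at 35.4, 39.1 and 36.7 CPM in the parental wells, 17.4 and 33.7 in 11 and 12, and 194 in OG. Its rise of 7.99-fold was far larger than the gap between 11 and 12. ALPP, placental alkaline phosphatase, stood at 42.8, 42.3 and 47.9 CPM in the parental wells, 19.4 and 19.4 in 11 and 12, and 142 in OG, although reads of this gene can be shared with its near-identical paralogs. FLG, which encodes the filament-aggregating protein of the cornified layer, was at 107, 98.5 and 84.6 CPM in the parental wells, 21.8 and 54.5 in 11 and 12, and 220 in OG. TCHHL1, a relative of FLG in the same gene cluster, was at 11.1, 8.52 and 8.94 CPM in the parental wells, 7.13 and 4.08 in 11 and 12, and 20.5 in OG.

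Other leading rises were of OLFM4, GPNMB, TNC and SLCO2A1, in all of which OG was the highest of the 6 libraries. OLFM4, a secreted glycoprotein of gut and other epithelia, was at 16.4, 16.6 and 17.4 CPM in the parental wells, 13.6 and 15.2 in 11 and 12 and 78.7 in OG, so that only OG had left the parental level. GPNMB, a lysosomal and melanosomal glycoprotein, was at 4.24, 3.38 and 3.36 CPM in the parental wells, 8.92 and 7.54 in 11 and 12, and 43.3 in OG. This gene was above the parental wells in all edited populations and farthest in OG. TNC, the matrix protein tenascin C, was at 19.8, 20.3 and 20.4 CPM in the parental wells, 8.85 and 12.1 in 11 and 12, and 52.5 in OG. SLCO2A1, a prostaglandin transporter, was at 9.97 and 9.33 CPM in 11 and 12, 12 to 13.6 over the parental wells and 35 in OG.

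INHBB and NEDD9 belong to the leading rises too, but their level in OG was close to the parental one. INHBB encodes the beta B subunit of activin B and inhibin B. It was at 44.6, 45.6 and 45.8 CPM in the parental wells, 8.92 and 9.4 in 11 and 12 and 43.3 in OG, with 11 and 12 at -2.30 log2 units from the parental mean. NEDD9, a docking protein of focal adhesions, was at 108, 105 and 99.8 CPM in the parental wells, 23.5 and 30.6 in 11 and 12, and 105 in OG. PDE4B, which degrades cAMP, was at 26.2, 26.7 and 26.5 CPM in the parental wells, 8.62 and 10.7 in 11 and 12, and 36.1 in OG. For this gene OG was above every well, by 0.45 log2 units from the parental mean, against a parental range of 0.02.

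**Figure D2:**
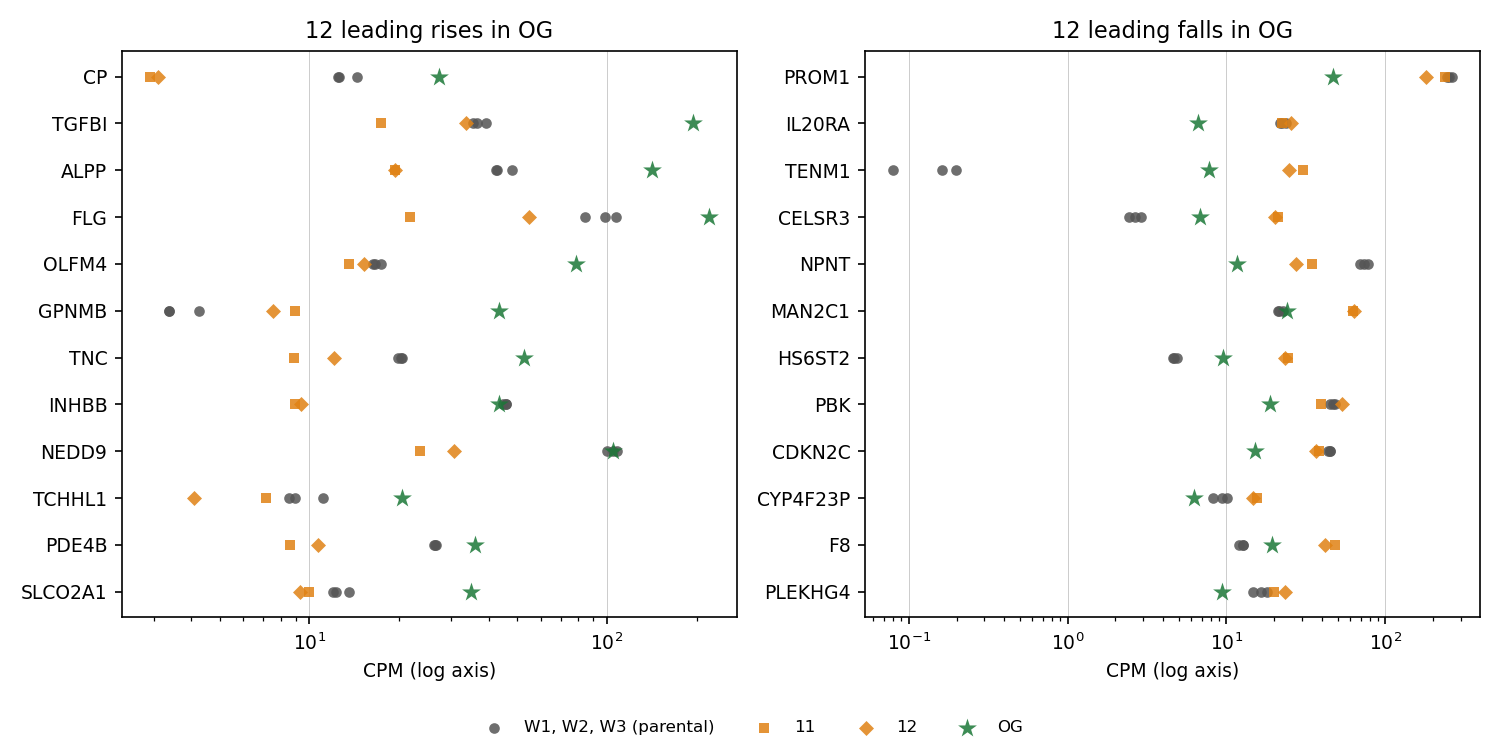
CPM on a log axis in each of the 6 libraries, for the 12 largest rises (left) and the 12 largest falls (right) in OG among called genes, passing over loci with clone-based or open reading frame names. Grey circles are the 3 parental wells, orange the populations 11 and 12, and the green star OG, which lies on the parental circles for INHBB, NEDD9 and MAN2C1 and beyond every other library for TGFBI and PROM1.

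PROM1 had the largest fall among the 31 lower genes, which include receptors, adhesion molecules, a mitotic kinase and a cell cycle inhibitor. PROM1 encodes prominin (CD133), a membrane protein of epithelial protrusions and a common stem cell marker. It was at 262, 253 and 243 CPM in the parental wells, 236 and 180 in 11 and 12, and 46.7 in OG, 4.4-fold below the mean of 11 and 12. Here 11 and 12 had kept near the parental level and OG had not. IL20RA, a receptor subunit for cytokines of the interleukin-20 family, behaved likewise, with 21.8, 22.3 and 23.8 CPM in the parental wells, 22.3 and 25.5 in 11 and 12 and 6.63 in OG. CDKN2C encodes p18, an inhibitor of the kinases CDK4 and CDK6. It was at 43.4, 44.8 and 45.1 CPM in the parental wells, 38 and 36.8 in 11 and 12, and 15.2 in OG. PBK, a mitotic kinase on chromosome 8, fell from 39.5 and 53.4 CPM to 18.7, and PLEKHG4 from 19.9 and 23.3 to 9.38. On the authors' FPKM the difference of PLEKHG4 was -0.93 log2 units, under the 2-fold limit.

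Another kind of fall was in genes that all edited populations expressed above the parental wells, but OG less. TENM1, a teneurin adhesion receptor on chromosome X, had 6, 2 and 5 counts in the parental wells, 30.4 and 24.6 CPM in 11 and 12, and 7.78 CPM in OG. CELSR3, a cadherin of planar polarity, was at 2.65, 2.9 and 2.45 CPM in the parental wells, 21 and 20.2 in 11 and 12, and 6.85 in OG. HS6ST2, which sulfates heparan chains, was at 4.62 to 4.87, 24.3 and 23.5, and 9.49 CPM in the same order, and F8, coagulation factor VIII, at 12 to 12.8, 48.2 and 41.6, and 19.3. For these 4 genes OG lay between the parental wells and 11 and 12, without overlap. MAN2C1, a cytosolic mannosidase, was at 21.1, 21.3 and 22.6 CPM in the parental wells, 62.3 and 63.7 in 11 and 12, and 24.2 in OG. NPNT, a basement membrane protein, was lowest in OG, at 11.6 CPM against 34.5 and 27.4 in 11 and 12 and 69 to 77.5 in the parental wells. CYP4F23P, a pseudogene, was at 9.44, 8.28 and 10.1 CPM in the parental wells, 15.5 and 14.6 in 11 and 12, and 6.24 in OG, below every well. Its reads may be shared with related genes.

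Where OG parted from 11 and 12, the parental level was held in some genes by OG and in others by 11 and 12. Of the 131 called genes, OG was within 0.5 log2 units of the parental mean for 48 (36.6%), 38 of them higher and 10 lower than 11 and 12. For 37 others (28.2%) the mean of 11 and 12 was within 0.5 of the parental mean and OG was not, and for 26 of these 37 OG was at least 1 log2 unit from it. OG lay between the parental wells and 11 and 12 for 19 genes, on the other side of the parental mean from 11 and 12 for 17, and farther out on the same side for 10. With OG required to lie within the range of the 3 wells, the 48 became 9, and within 0.25 log2 units 30; leaving out 12 made it 75.

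The genes at the parental level that 11 and 12 had left farthest were INHBB, PKD1L2, NEDD9, F3, FRY and MAN2C1. PKD1L2, a polycystin relative, was at 25.7, 22.9 and 24.1 CPM in the parental wells, 5.86 and 5.88 in 11 and 12, and 19.2 in OG. F3 encodes tissue factor, the trigger of clotting, and was at 134, 131 and 121 CPM, then 33.4 and 41.6, then 106. FRY, a large scaffold protein of cell shape, was at 30 to 37.2, 10.9 and 9.12, and 29.1 CPM. In the reverse class, HSD3B7, a bile acid synthesis enzyme, was at 6.49 to 6.76 CPM in the parental wells, 6.57 and 6.87 in 11 and 12, and 23.6 in OG. ITGA5, the fibronectin receptor subunit, was at 6.32 to 6.84, 5.41 and 8.7, and 19.2 CPM, and no other library reached the level of OG for either gene.

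**Figure D3:**
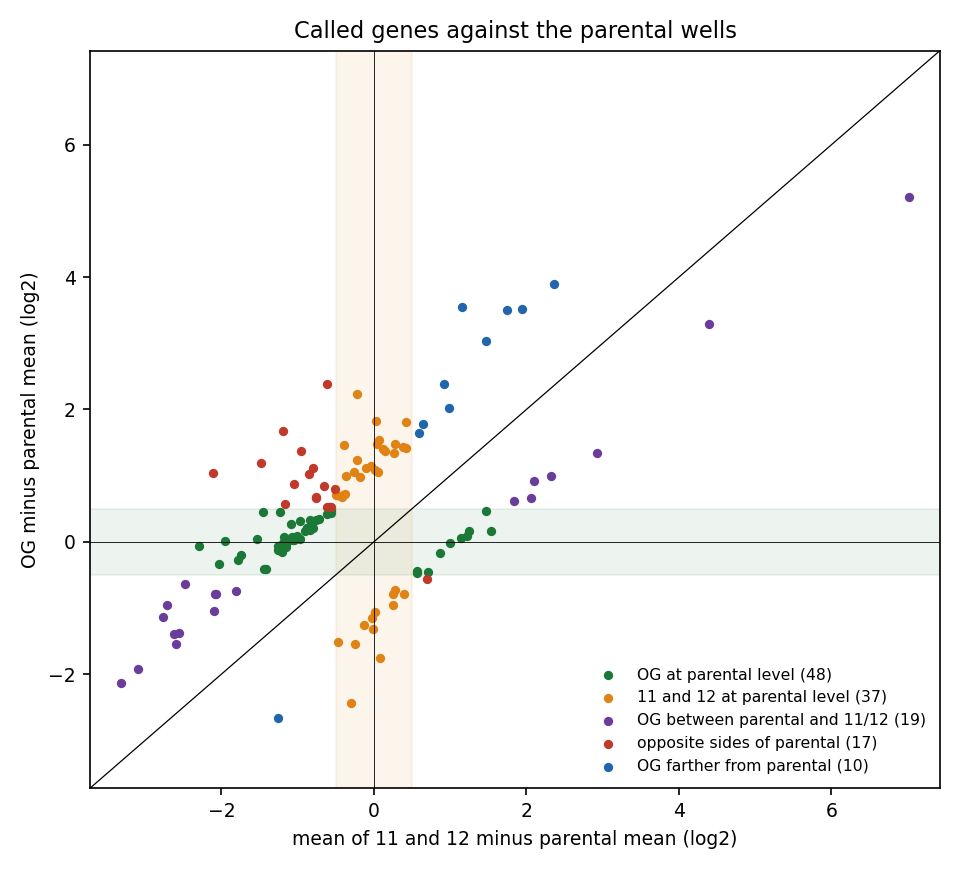
Each point is 1 of the 131 called genes, placed by the log2 distance of the mean of 11 and 12 from the parental mean (horizontal) and of OG from it (vertical). Colours give the class and its number of genes, the shaded bands mark 0.5 log2 units around the parental mean, and 48 points lie in the horizontal band.

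A set of genes chosen by the distance of 11 and 12 from the parental wells puts these departures in proportion. The expression limit on this set still includes OG, so genes low in 11 and 12 can enter through a high level in OG. INHBB and PKD1L2, with means of 9.16 and 5.87 CPM in 11 and 12, are examples, so the shares for the lower genes can be tilted. In 11 and 12 together, 664 genes were at least 2-fold from the parental mean. OG lay within 0.5 log2 units of 11 and 12 for 426 of them (64.2%), between them and the parental wells for 112, within 0.5 of the parental mean for 73 (11%), beyond 11 and 12 for 47 and beyond the parental mean for 6. At the median OG had gone 88.2% of the log2 distance, 93.9% for the 324 genes higher and 82.2% for the 340 genes lower in 11 and 12. All 3 populations are compared with the same parental wells, so these shares describe levels and are no independent evidence of a shared change.

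Genes switched between off and on were mostly in the same state in OG as in 11 and 12. MAGED1, SCGB2A2 and SLC12A7 were at 10 or more CPM in the parental wells with at most 3 counts over 11 and 12, and OG had 0, 0 and 1 counts of them, where 3 counts would be 0.107 CPM. MAGED1 was at 44.9, 45.5 and 47.5 CPM in the parental wells, and SCGB2A2, mammaglobin, at 39.1, 38.8 and 41.2. In the opposite direction C11orf53, COL5A1, PDZD4 and SDR16C5 had at most 3 counts over the 3 parental wells. OG expressed all 4, at 4.74, 17.3, 17.1 and 5.42 CPM against 14.9 and 5.85, 12.4 and 8.27, 36 and 40.8, and 17.8 and 12.7 in 11 and 12. For COL5A1 and C11orf53 OG was within 2-fold of the mean of 11 and 12, and for PDZD4 and SDR16C5 it was lower by 2.23 and 2.76-fold. PDZD4 and SDR16C5 were not called, because log2 values near 0 counts gave their parental wells a wide range. With up to 10 counts allowed, 13 such genes were found and OG was within 2-fold for 11. GSTP1, a glutathione transferase silenced in some tumours, belongs to the same picture, with at most 0.464 CPM in the parental wells, 77 and 82.3 in 11 and 12, and 74.1 in OG.

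Differences between OG and the other edited populations also ran in blocks of neighbouring genes, most of them shifted the same way by less than 2-fold. Gene order was taken from the RefSeq table for GRCh38, a later build than the hg19 used by the authors, and 9936 genes (97.5%) could be placed. A running median of the difference over 31 genes reached 0.25 log2 units or more for at least 30 successive genes in 9 blocks, which held 1024 genes. No such block appeared between 11 and 12 or between any 2 parental wells, where the running medians stayed between -0.28 and 0.18. Only RNA was measured, and the blocks were defined from the same values that they describe.

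The longest block covered 365 genes on chromosome 2, from ZNF514 to RNPEPL1, the last gene that a full window reached. OG was above the mean of 11 and 12 for 93.4% of them, with a median of 0.55 log2 units, and 26 of the 100 higher genes lay there. Relative to the parental wells the median was 0.14 in OG and -0.38 in 11 and 12, so 11 and 12 had moved farther from the parental level than OG. INHBB, ALPP, ACVR1, ITGB6, IRS1, EPHA4 and SERPINE2 are in this block. On chromosome 22 the block from CLTCL1 to ZBED4 held 214 genes with a median of 0.34, at 0.14 from the parental wells in OG and -0.21 in 11 and 12, and included C1QTNF6, WNT7B, RAC2 and MIF. On chromosome 16, 64 genes from RFWD3 to SPG7 had a median of 0.38, and all 64 were above 0.

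In 5 blocks OG was lower than 11 and 12. The 103 genes from CTSB to MCM4 on chromosome 8 had a median of -0.42, with OG at -0.49 and 11 and 12 at -0.01 from the parental wells, so here OG had moved. PBK, FZD3 and SMIM19 were the called genes of that block. On chromosome 11, 38 genes from PICALM to CWF19L2 had a median of -0.30, again with OG at -0.38 and 11 and 12 at the parental level. The 106 genes from PKM to IGF1R on chromosome 15 had a median of -0.39, but both were above the parental wells, by 0.45 in OG and 0.92 in 11 and 12, and MAN2C1 was the called gene there. On chromosome 6, 65 genes from CD109 to CEP57L1 (median -0.30) and 35 from PPIL4 to QKI (median -0.38) had medians below the parental wells in OG (-0.53 and -0.96) and in 11 and 12 (-0.19 and -0.63). NT5E lies in the former and was called higher in OG, against its neighbours.

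**Figure D4:**
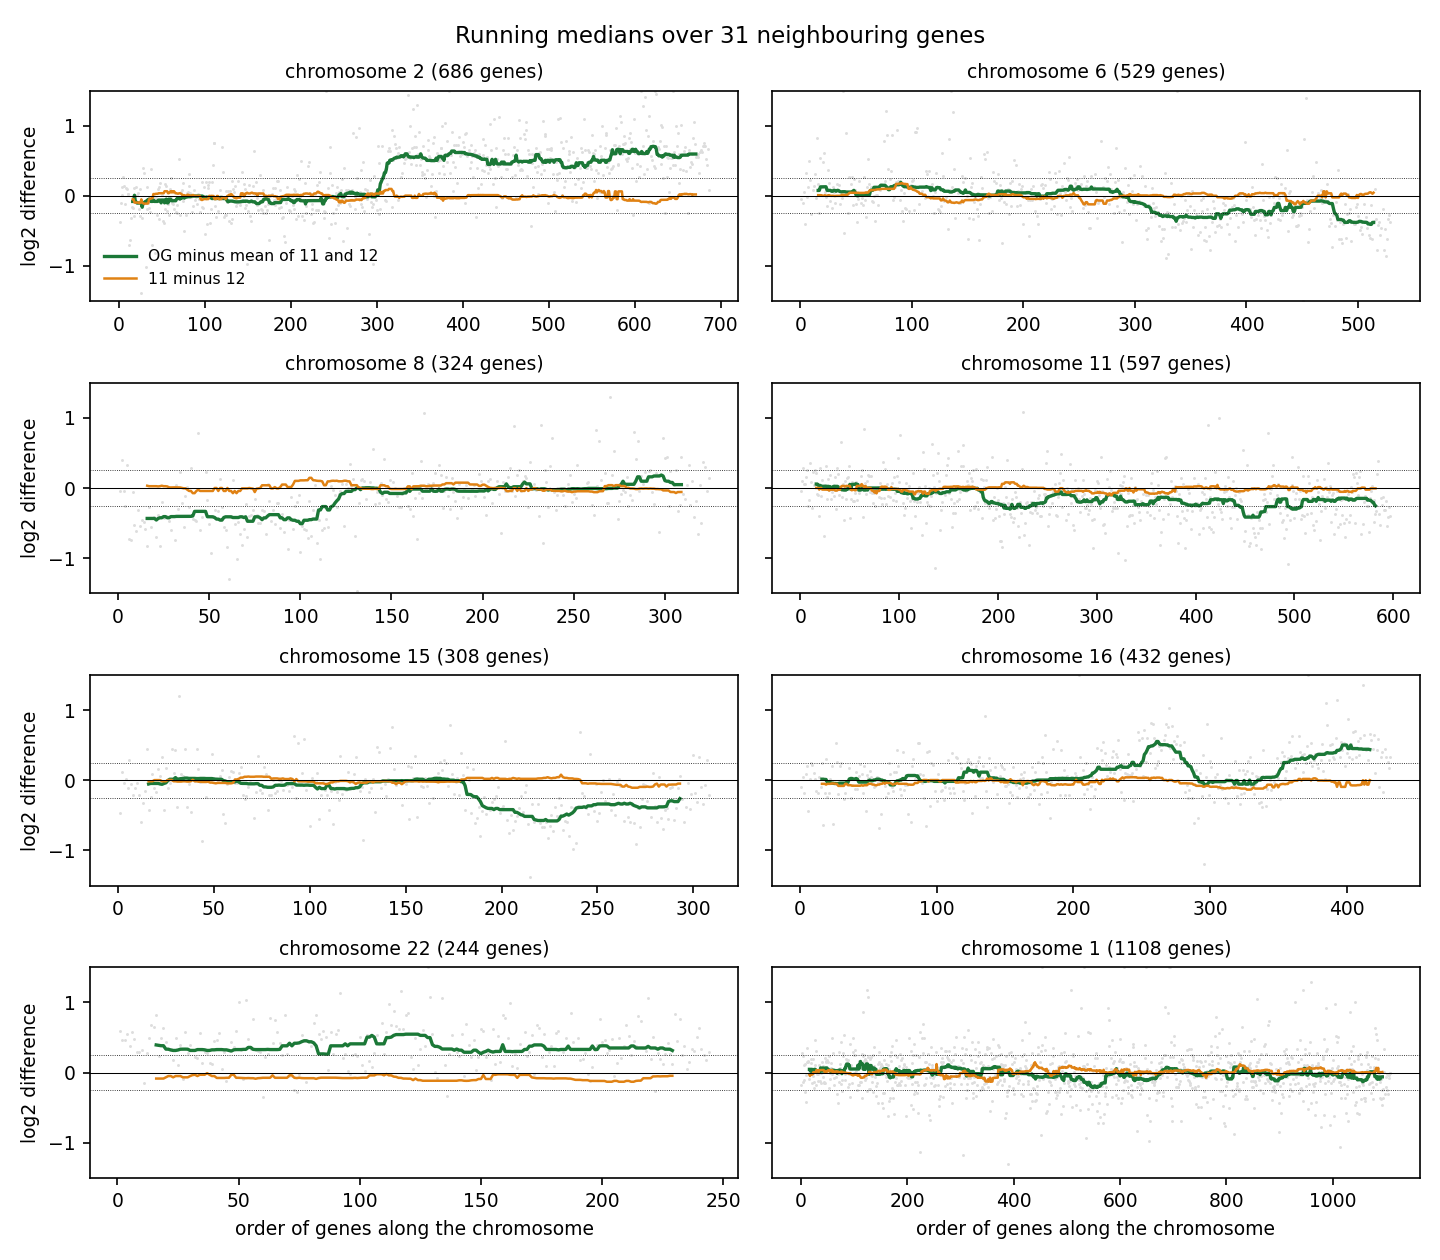
Log2 difference against the order of compared genes along the 7 chromosomes with blocks, and chromosome 1 for contrast. Green lines are running medians over 31 genes for OG minus the mean of 11 and 12, orange lines the same for 11 minus 12, grey points single genes drawn at the edge beyond 1.5, and dotted lines the limit of 0.25, which the orange lines do not cross.

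The blocks held 38 of the 100 higher and 4 of the 31 lower genes, and 10% of all compared genes. They also held 22 of the 48 called genes at the parental level and 10 of the 37 for which 11 and 12 were there. Outside the blocks the classes were of about the same size, with 18 higher and 8 lower genes in the former and 17 and 10 in the latter. When each difference was taken relative to the running median of its neighbours, 73 of 9936 genes were called higher (0.735%) and 21 lower (0.211%), among them 62 of the 100 and 19 of the 31 first called. INHBB kept 1.63 of its 2.23 log2 units and ALPP 2.29 of 2.87, while IRS1 (1.45 to 0.78), ITGB6 (1.13 to 0.68), ACVR1 (1.10 to 0.65), MAN2C1 (-1.38 to -0.86) and PBK (-1.30 to -0.89) passed below the 2-fold limit. Of the 664 genes above, 532 lay outside the blocks, and OG was within 0.5 log2 units of 11 and 12 for 68.8% and of the parental mean for 8.83%. No run of called neighbours in the gene order was longer than 2.

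Genes of mitosis and G2, which are transcribed as cells prepare to divide, were lower in OG as a list, with 11 nearer to OG than 12 was. Of 44 measured members, 40 were below both 11 and 12, where 40.9% of all compared genes were, and none was above both, where 39.4% of all genes were. The median difference was -0.51 log2 units against -0.01 over all genes, and -0.47 relative to neighbours. It was -0.71 without 11 and -0.30 without 12. PBK was the sole member called. MKI67, the proliferation antigen, was at 784, 765 and 694 CPM in the parental wells, 1073 and 1408 in 11 and 12, and 744 in OG. OG thus stood at the parental level, and the median of the list was -0.03 from the parental wells in OG and 0.40 in 11 and 12. Populations 11 and 12 themselves differed, with all 44 members lower in 11 and a median of -0.43, nearly as large as the distance to OG.

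Single members differed in where OG lay relative to the parental wells. TTK, a kinase of the spindle checkpoint, was at 145, 142 and 138 CPM in the parental wells, 129 and 183 in 11 and 12, and 83.2 in OG. PRC1, which bundles midzone microtubules, was at 185 to 190 CPM in the parental wells, 270 and 352 in 11 and 12, and 190 in OG. TTK lies in the chromosome 6 block from CD109 to CEP57L1, and PRC1 in the chromosome 15 block from PKM to IGF1R. The block medians of OG against 11 and 12 were -0.30 and -0.39, and their part in these 2 differences was not tested. CDC20, the activator of the anaphase complex, was at 265 to 271, 280 and 419, and 288 CPM, with OG just above 11. By contrast the 49 genes of G1 and S phase had a median of 0.02, or -0.06 without 12. Of these 49, 22 lay above and 20 below both, against 39.4% and 40.9% of all compared genes. CDKN2C was the called member of that list.

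Promoters of the mitotic list show the short elements known from this gene class, and the promoters of NUF2, ASPM and CENPE, 3 of the 5 members with the largest differences, are printed to show them. The sequences are from RefSeq on GRCh38.p14, from 250 bases before to 50 after the gene start, 5′ to 3′ on the gene's strand; capitals mark TTTGAA (the cell cycle homology region) and CCAAT on either strand, where CCAAT reads ATTGG on the reverse. NUF2 and CENPE encode kinetochore proteins and ASPM a spindle pole protein, and the windows are chr1:163321704-163322003 (+ strand), chr1:197146620-197146919 (- strand) and chr4:103198294-103198593 (- strand).
NUF2: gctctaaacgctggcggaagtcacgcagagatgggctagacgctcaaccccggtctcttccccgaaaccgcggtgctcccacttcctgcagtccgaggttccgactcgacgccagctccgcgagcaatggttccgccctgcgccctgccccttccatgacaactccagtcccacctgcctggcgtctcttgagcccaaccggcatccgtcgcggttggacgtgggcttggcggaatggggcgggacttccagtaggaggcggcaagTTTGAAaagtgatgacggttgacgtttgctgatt
ASPM: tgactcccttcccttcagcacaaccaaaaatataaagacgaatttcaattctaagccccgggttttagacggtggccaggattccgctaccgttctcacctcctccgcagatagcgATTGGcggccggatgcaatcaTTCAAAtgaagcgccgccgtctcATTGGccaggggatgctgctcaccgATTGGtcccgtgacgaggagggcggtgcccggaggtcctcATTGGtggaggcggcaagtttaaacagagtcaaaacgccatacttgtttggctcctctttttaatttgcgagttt
CENPE: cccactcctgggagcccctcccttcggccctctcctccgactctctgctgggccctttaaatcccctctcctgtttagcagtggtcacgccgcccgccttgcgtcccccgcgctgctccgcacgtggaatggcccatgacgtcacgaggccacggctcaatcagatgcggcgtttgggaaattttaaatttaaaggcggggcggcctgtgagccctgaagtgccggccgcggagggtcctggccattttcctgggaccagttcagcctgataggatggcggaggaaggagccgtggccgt
NUF2 holds 1 TTTGAA and no CCAAT, ASPM 1 and 4, and CENPE neither in this window. Of 35 promoters found for the list, 24 (68.6%) held TTTGAA and 27 (77.1%) CCAAT, against 9.26% and 37.5% of 7503 promoters of compared genes. In OG these 3 genes were at 23.4 CPM (NUF2, 37.8 and 49.2 in 11 and 12), 165 CPM (ASPM, 272 and 322) and 103 CPM (CENPE, 153 and 196), with NUF2 and ASPM below the parental wells at 47 to 51.5 and 220 to 257. CENPE at 96.6 to 112 in the parental wells was level with OG. The median CpG observed over expected was 0.75 in 73 promoters of higher and 0.75 in 21 of lower called genes, and 0.86 over compared genes.

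Of the 48 gene lists described, adhesion and matrix lists had the largest shares of called members, 42.9% of mesenchymal, 18.8% of basement membrane, 18.2% of fibrillar matrix and 14.3% of integrin genes, where 1.29% of all compared genes were called. That order did not hold relative to neighbours, where 4 of 7 mesenchymal, 3 of 11 fibrillar matrix, 4 of 20 NF-kB and cytokine, 3 of 16 basement membrane and 2 of 28 integrin genes were called. Both sets of shares are over members past the expression limit, whose mean includes OG, so a rise in OG can add a called member. NT5E, ITGA5, ICAM1 and C3 had means in 11 and 12 of 9.26, 7.05, 9.98 and 7.1 CPM, below that limit of 10. Called members of other lists were below it as well, among them INHBB (9.16), GBP1 (7.16), SERPINE2 (6.62) and PDE4B (9.65). Members named below without a call were chosen after their values were seen. Of 25 mesenchymal genes and regulators of epithelial to mesenchymal transition in the count table, 7 passed the limit, and TGFBI, TNC and NT5E were called. Of these 7, 6 lay above both 11 and 12, where 39.4% of all compared genes did. The median of the 7 was 0.96 log2 units, or 1.12 relative to neighbours. This median was 0.61 without 11 and 1.32 without 12. NT5E (CD73), which makes adenosine, was at 64.6, 62.1 and 61.7 CPM in the parental wells, 10.5 and 8.03 in 11 and 12, and 28.6 in OG, between the other groups. FN1, fibronectin, was at 27.7 and 45.2 CPM in 11 and 12 and 69.1 in OG and was not called. CD44 did not share this pattern, with 1176, 1674 and 1415 CPM in 11, 12 and OG.

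Among 28 integrin and focal adhesion genes, 23 lay above both 11 and 12 and 3 below, against 39.4% and 40.9% of all compared genes. ITGA5, ITGB6, ZYX and PXN were called. Integrins join matrix to actin through adaptors such as zyxin and paxillin. ZYX was at 79.2, 84.2 and 94.4 CPM in the parental wells, 33.1 and 45.8 in 11 and 12, and 85.1 in OG. The difference of ZYX was 0.89 log2 units against 12 alone and 0.95 on the authors' FPKM, both under the 2-fold limit. PXN was at 80.2 to 83.2, 85.1 and 84.5, and 170 CPM, so OG alone had left the parental level. The list had a median of 0.43, and of 0.31 relative to neighbours, and ITGB6, ITGA6, ITGAV, TNS1 and LIMS1 are on chromosome 2. Talin 1 (TLN1) was level among the edited populations, at 1185 to 1218 CPM in the parental wells, 309 and 328 in 11 and 12, and 337 in OG.

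Of 16 basement membrane genes, LAMB3 and FRAS1 were higher and NPNT lower, with a median of 0.19 that was 0.30 without 11 and 0.08 without 12. FRAS1 was under 2-fold against 11 alone, at 0.84 log2 units. LAMB3, the epithelial laminin beta chain, was at 23.5, 21.3 and 25 CPM in the parental wells, 21.1 and 29.9 in 11 and 12, and 61.3 in OG. Among 11 fibrillar collagens and matrix proteins 9 lay above both, where 39.4% of all compared genes did. The called members were THBS1 and TNC, and TNC is also counted in the mesenchymal list, so these 2 shares overlap. THBS1, thrombospondin 1, rose from 112 and 111 to 258 CPM, beyond the 147 to 166 of the parental wells. CAV1, the coat protein of caveolae, was at 53.4 to 66.5, 44.4 and 60.5, and 116 CPM and counted with LAMB3 among the 22 basal markers, whose median of 0.29 was 0.03 without 11 and 0.38 without 12. Against 12 alone the difference of CAV1 was 0.94 log2 units, under the 2-fold limit. Of 26 matrix proteases and inhibitors, SERPINE2, a protease nexin, was at 1.99, 1.99 and 1.71 CPM in the parental wells, 5.56 and 7.68 in 11 and 12, and 22.2 in OG, and TIMP2 at 23.6 to 25.1, 30.3 and 28.9, and 62.1. The median of that list was 0.09, or 0.01 without 11.

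EGFR, the amplified receptor of this line, was higher in OG than in every other library but missed the 2-fold limit. It was at 5286, 5220 and 4880 CPM in the parental wells, 4518 and 4906 in 11 and 12, and 8299 in OG, a difference of 0.82 log2 units with no overlap. Among 24 genes of the EGFR family, its ligands and MAPK feedback, 16 lay above both 11 and 12 and 4 below, against 39.4% and 40.9% of all compared genes. The list had a median of 0.37 (0.33 relative to neighbours). Feedback genes of the ERK pathway were among the 16: SPRY4 was at 10.3 and 13.8 CPM in 11 and 12 and 22.3 in OG, DUSP5 at 14.4 and 19.1 and then 29.7, and DUSP6 at 10.4 and 15.2 and then 19.1. In the parental wells these were at 21.9 to 24.7, 26.3 to 26.6 and 15.6 to 16.8 CPM, close to OG. EPHA4, an ephrin receptor, was the sole called member, at 30.2 and 28.5 and then 64.6 CPM. Relative to its neighbours in the chromosome 2 block its difference went from 1.14 to 0.51 log2 units, and no member of the list was called. ERBB2 and ERBB3 were below both at 102 and 125 CPM. MET, the receptor of hepatocyte growth factor, was called outside the list, with 54.2 to 64 CPM in the parental wells, 55.8 and 74.2 in 11 and 12, and 151 in OG.

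Genes of antigen presentation by HLA class I, the molecules that display peptides to T cells, lay above both 11 and 12 for 11 of 15 members, with a median of 0.60 (0.51 relative to neighbours). Of all compared genes 39.4% lay above both. HLA-B was at 132, 128 and 147 CPM in the parental wells, 103 and 72.6 in 11 and 12, and 244 in OG, and was called. B2M, the shared light chain, was at 380 to 398, 342 and 249, and 452 CPM. HLA-C at 197, 163 and 312 CPM in 11, 12 and OG was within its parental range of 279 to 323. Reads can be shared between HLA genes, and 12 was below 11 for 11 of the 15 genes. The wider interferon response list of 23 genes had a median of 0.09, which was 0.18 without 11, -0.06 without 12 and -0.12 relative to neighbours, with GBP1 called, at 40.3 to 43.6 CPM in the parental wells, 6.5 and 7.82 in 11 and 12, and 16.2 in OG. The chaperones CALR and CANX, counted in the HLA list, were lower in OG, at 859 and 1234 CPM.

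Inflammatory genes gave a mixed picture. Of 20 genes of NF-kB, cytokines and chemokines, ICAM1 and C3 were called and the median was 0.25. ICAM1, the leukocyte adhesion molecule, was at 56.2, 53.4 and 58.6 CPM in the parental wells, 9.97 and 10 in 11 and 12, and 36.1 in OG. C3, a complement component, was at 9.47 to 10.7, 8.36 and 5.85, and 17.4 CPM, but on the authors' FPKM its difference was 0.60 log2 units in place of 1.31. SOD2 at 85.4, 87.4 and 70.2 CPM in 11, 12 and OG went the other way.

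Most measured genes of hypoxia and of glutathione, thioredoxin and NRF2 lay above both 11 and 12, where 39.4% of all genes did. Of 22 hypoxia genes 17 lay above both, with a median of 0.35 that was 0.25 without 11 and 0.56 without 12. Of these 22, 18 were lower in 11 than in 12. Against 12 alone EGLN3 was under 2-fold, at 0.93 log2 units. STC2, a secreted glycoprotein, was at 5.23 to 6.82 CPM in the parental wells, 16.6 and 33.5 in 11 and 12, and 70.5 in OG. Relative to neighbours its difference was 1.49 log2 units and was not called. EGLN3, an oxygen sensing hydroxylase, was at 67.7 to 71.3, 33 and 45.8, and 87.2 CPM. CA9, carbonic anhydrase 9, was at 14.3 and 37 CPM in 11 and 12 and 45.2 in OG, below its 70.6 to 80.1 in the parental wells, and was not called. Among 37 genes of glutathione, thioredoxin and NRF2, 26 lay above both, with a median of 0.25, and FTH1 and AKR1B1 were called. FTH1, the ferritin heavy chain that stores iron, was at 1037, 1069 and 1152 CPM in the parental wells, 597 and 588 in 11 and 12 and 1255 in OG, and the light chain FTL at 110, 106 and 194 CPM in 11, 12 and OG. Processed copies of FTH1 (FTH1P20, FTH1P11 and FTH1P2) moved with it and may share its reads. AKR1B1, aldose reductase, was at 180 to 186, 153 and 229, and 505 CPM.

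In other growth factor pathways single members were called. In the TGF-beta and BMP list of 27 genes INHBB and ACVR1, both on chromosome 2, were called, and the median was 0.29 (0.20 relative to neighbours). ACVR1, an activin and BMP receptor, was at 28.5 to 30.5, 15.2 and 13.8, and 31.1 CPM. TGFB2, a TGF-beta ligand, was at 146 to 158, 34.3 and 28.3, and 58.8 CPM and was not called. Of 35 Wnt genes WNT6 and WNT7B were higher and FZD3 lower, on the blocks of chromosomes 2, 22 and 8, and the median was -0.03, or 0.13 without 11. WNT6 was under 2-fold against 11 alone (0.92), and FZD3 against 12 alone (-0.81) and on the authors' FPKM (-0.91). Of 29 targets and members of the Hippo pathway F3 and NT5E were called, with a median of 0.12 that was 0.20 without 11 and 0.08 without 12, and of 12 histone genes HIST1H2AC, whose close copies may share reads, rose from 22.2 and 17.1 to 45.2 CPM with a median of 0.01 for the list.

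**Figure D5:**
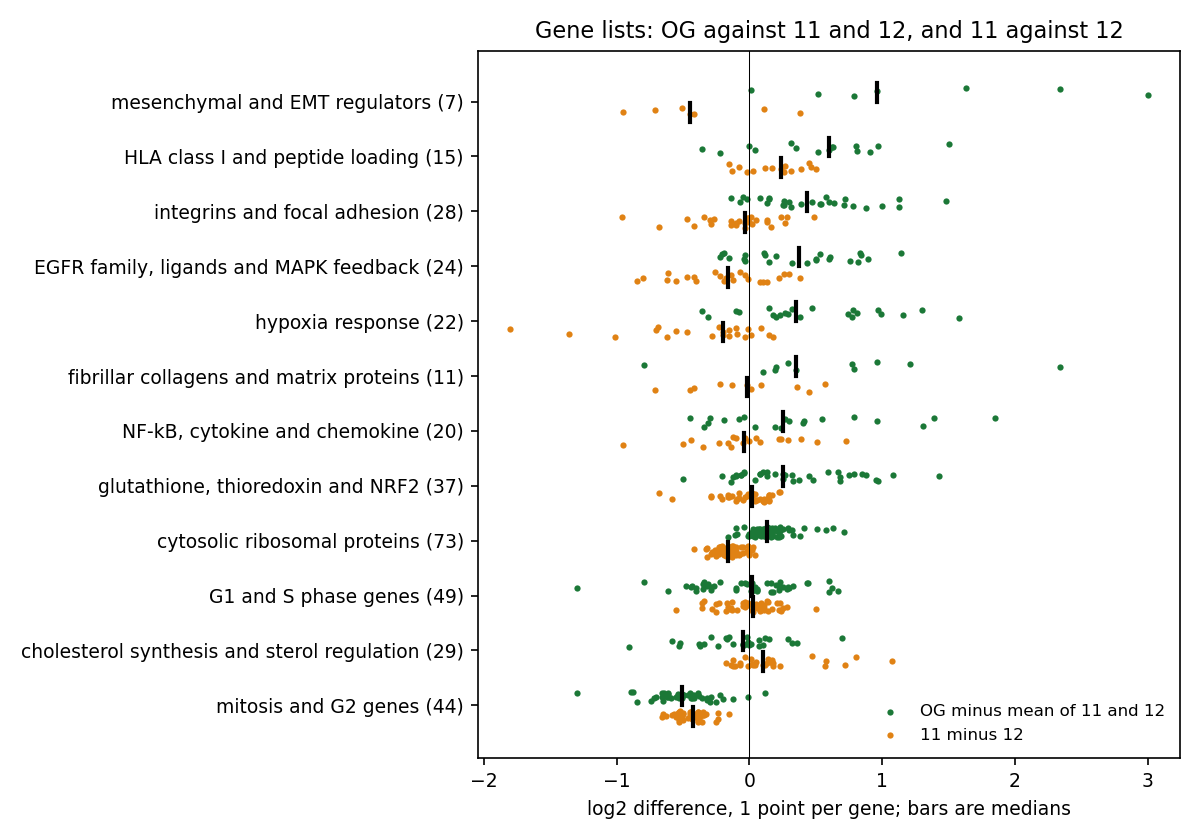
Each point is 1 gene of the list named at the left, with its number of compared members. Green points give the log2 difference of OG from the mean of 11 and 12, orange points that of 11 from 12 and black bars the medians, which for OG run from 0.96 in the mesenchymal list to -0.51 in the mitotic list, where the orange bar is at -0.43.

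Many programmes were near level at the median between OG and the other edited populations. Medians were -0.05 for 29 cholesterol synthesis genes and 0.06 for 54 nuclear genes of oxidative phosphorylation. They were 0.02 for 38 genes of the ATF4 amino acid response and 0.06 for 30 genes of p53 targets and apoptosis. For 22 cAMP signalling genes the median was 0.01, and for 51 modifiers of DNA methylation and histones -0.06. Single members could still differ. In the ATF4, p53 and cAMP lists 1 member each was called higher, with highest differences of 1.58, 1.09 and 1.91 log2 units, the last that of PDE4B. For cholesterol synthesis OG and the other 2 populations were alike below the parental wells, by 0.48 and 0.41 log2 units. Of 73 cytosolic ribosomal protein genes 52 lay above both and 5 below both, against 39.4% and 40.9% of all compared genes. They ran from -0.16 to 0.71 log2 units with a median of 0.13, which was 0.05 without 11 and 0.22 without 12. Of the 73, 70 were lower in 11 than in 12. Of 18 S100 and cornified envelope genes FLG was called and the median was 0.11, and 15 luminal markers had a median of -0.13 with no call.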

How the data were processed

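Poly(A) RNA of 6 MDA-MB-468 libraries was sequenced, 1 library each for OG, 11, 12 and the parental wells W1, W2 and W3. Raw counts per gene symbol and FPKM values were deposited by the authors. Both sets are labelled unique, so reads shared between near-identical genes may be left out of them or placed in error. Per the submitters' processing notes STAR 2.4.0f1, SAMtools 0.1.19, Cufflinks 2.0.2 and hg19 were used, and these notes name no annotation, counting program or strand setting. Counts were scaled by TMM (edgeR 4.0.16, R 4.3.3) to log2 CPM with a prior count of 2, and genes with a mean of 10 or more CPM in the 3 edited libraries were kept. Genes called apart differed at least 2-fold and by more than the spread, as defined in the results. With 1 OG library there was no test, and the parental spread, over wells of 1 plate, may be technical. The calling rule was checked on simulated data with known changes.

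The genes named are GPR52, RABGAP1L, the 12 largest rises and falls (passing over uncharacterised loci with clone-based or open reading frame names), the 6 leading genes of each parental-level class, and up to 4 called members in each of 12 lists, plus others chosen after their values were seen. The gene lists and the comparison were chosen with earlier results of these data known. Blocks and differences relative to neighbours were added after seeing the data. Alternatives were other scalings (library totals, DESeq2 size factors, upper quartile), other limits, thinned counts, FPKM and leaving out each library. A few genes and 1 block are not reported here.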

Additional observations from a re-analysis of the deposited data

How the results depend on the processing

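With a 1.5-fold limit 483 genes were higher and 295 lower in OG, 173 were apart between 11 and 12, 415 were called with OG at the parental level and 221 with 11 and 12 there; with a 3-fold limit these were 22, 3, 9, 5 and 5. A minimum mean of 20 CPM gave 64 higher and 18 lower genes, and one of 5 CPM gave 57 lower genes and 57 with 11 and 12 at the parental level. FPKM with a pseudocount of 1 gave 20 lower genes, and with 0.1 it shared 86 of the 100 higher and 23 of the 31 lower genes. Requiring the parental range left 9 genes with OG and 6 with 11 and 12 at the parental level, and requiring 0.25 log2 units left 30 and 19. Leaving out 1 library gave 100 to 134 higher and 31 to 60 lower genes, 48 to 75 with OG at the parental level and 37 to 45 with 11 and 12 there, the upper values all without 12. With 10 counts allowed, 11 genes on in 11 and 12 were within 2-fold in OG. Library totals gave 94 higher and 34 lower genes, and the scalings moved the median of all genes to between -0.02 and -0.00. In all, 67 of these alternative counts stayed within 1.5 times and 22 did not. Of the differences of single named genes 407 moved by less than the spread and 43 by more, mostly on FPKM. With a pseudocount of 1 on FPKM the differences of CELSR3 (-0.82), HS6ST2 (-0.97), PLEKHG4 (-0.78), FRY (0.89), C3 (0.49), TIMP2 (0.94), ACVR1 (0.96), WNT7B (0.98), WNT6 (0.97), ZYX (0.92) and FZD3 (-0.75) were under 2-fold. Library totals put PXN (0.98) under it. With a limit of 0.35 for blocks, 5 blocks with 566 genes remained, and a window of 51 genes gave 8 with 914. No paired analysis was possible because the libraries carry no shared replicate numbers and OG is a single library. Precision of low genes is limited by counting, since 1 count was 0.0323 to 0.0398 CPM.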

Other observations

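Further called genes, named after their values were seen, add cytoskeleton, metabolism and receptors to the picture. FSCN1, which bundles actin in cell protrusions, was at 1.79, 2.19 and 2.84 CPM in the parental wells, 9.41 and 14.7 in 11 and 12, and 34.1 in OG. AHNAK2, a large scaffold protein, was at 15.9 to 16.5, 36.7 and 54.2, and 133 CPM, and MAP1B, a microtubule protein, at 3.94 to 5.01, 7.58 and 9.79, and 24. In these 3 genes all edited populations were above the parental wells and OG was farthest. DYSF, dysferlin of membrane repair, was at 39.2 to 41.6 CPM in the parental wells, 13.5 and 14.5 in 11 and 12, and 42 in OG, level with the parental wells. CLDN1, a tight junction protein, was the called member among 25 tight junction and polarity genes, at 70.1 to 72.9, 17.1 and 16.8, and 41.2 CPM.

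SREBF1, the regulator of fatty acid synthesis, was lower in OG at 44.8 CPM against 114 and 73.8 in 11 and 12 and 72.4 to 88 in the parental wells, while 24 genes of fatty acid synthesis had a median of -0.11 log2 units, or -0.04 without 11. SLC6A14, an amino acid transporter, was at 30.7 to 32.8, 31 and 31.9, and 14.4 CPM, and LBR, the lamin B receptor, at 121 to 139, 122 and 139, and 62.4. For both genes OG alone had left the parental level. FAT2, an atypical cadherin, was at 2.15 to 2.85 CPM in the parental wells, 49.8 and 55.5 in 11 and 12, and 24.4 in OG. EPHB6, an ephrin receptor, was at 46.9 to 53, 65.3 and 84.4, and 153 CPM, and 30 axon guidance genes had a median of 0.29, which was 0.17 relative to neighbours and 0.16 without 12. Among 11 RefSeq promoters of the HLA class I list, a core of the interferon-stimulated response element, searched on both strands, was found in 6 (54.5%), against 2.67% of promoters of compared genes.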
